A study of Mus musculus with 24 samples.

Results

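The cytokine genes Il6, Il10 and Il12b were followed across 6 chromatin and RNA polymerase II (Pol II) profiles of mouse macrophages with and without a hairpin against Wdr82. Their members are the called peaks that overlap a fixed window around each gene on the mm9 build, namely chr5:30310000-30370000 for Il6, chr1:132890000-132940000 for Il10 and chr11:44190000-44250000 for Il12b. The windows held 137 of the 756484 peaks in the 24 peak lists. Of these, 28 lay at Il6, 66 at Il10 and 43 at Il12b. Merged over the 4 libraries of each antibody, they formed 44 regions, of which 13 were called in all 4 libraries and 11 in a single one. The same counts were not made over the genome, so how usual they are is unknown.

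Il6 encodes interleukin-6, a secreted cytokine that drives the acute phase response and fever. Il12b encodes the p40 subunit shared by the cytokines IL-12 and IL-23, which direct T cells towards inflammatory fates. Il10 encodes interleukin-10, which restrains macrophage activation. All of these genes are known targets of Toll-like receptor signalling in macrophages, where lipopolysaccharide (LPS), a component of bacterial outer membranes, switches them on. H3K4me3 marks promoters, H3K4me1 marks enhancers and promoter flanks, and H3K27ac marks either kind of element when active. The Ser2P form of Pol II, with phosphate on serine 2 of the tail of its largest subunit, is the elongating one, and H3K36me3 accumulates over transcribed gene bodies. WDR82 is a subunit of the SET1 complexes that methylate H3K4 and of a phosphatase complex with a role in transcription termination.

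The cells were primary macrophages cultured from bone marrow of FVB/Hsd mice and used at day 7 of differentiation. They carried a retroviral hairpin (shWdr82) or a control virus, under puromycin selection, and were given 10 ng/ml LPS or left untreated. For H3K4me3 and H3K27ac the groups were shWdr82 and empty vector (LMP) cells, each after 4 h of LPS or untreated. For H3K4me1, total Pol II, Ser2P and H3K36me3 they were shWdr82 and scrambled hairpin cells, each after 45 min of LPS or untreated. These times come from the sample titles, while the treatment text speaks of 4 h alone. The word control below stands for the empty vector or the scrambled hairpin, whichever the antibody has. A single hairpin against Wdr82 was used, and its effect on Wdr82 cannot be read from peak lists. Macrophage markers were not checked, because no gene annotation of the mm9 build was used.

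Each of the 24 groups had 1 library, so the differences given here have no replicates behind them, and no test was run. Read depth is unknown. The lists held from 14420 peaks (Ser2P, scrambled, LPS) to 65149 peaks (H3K4me1, scrambled, LPS), every score was at least 50, and a region that is not called may still carry signal below the threshold. The score is the authors' value for a peak within its own list and is not compared between lists. Covered length is the part of a window under called peaks. It is called different where the ratio of 2 libraries reaches 2-fold or where 1 of them is 0. As a background, the genome was cut into stretches of the window's length, 60 kb for Il6 and Il12b and 50 kb for Il10, and the share of stretches past the same 2-fold limit was counted among those with a peak in either of the libraries compared.

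The promoter sequences of Il6 and Il12b are shown because these genes are known targets of NF-kB and C/EBP factors. Called peaks differed between LPS and untreated cells in their windows and in that of Il10, for which no promoter entry was matched. RefSeq entries were matched for 2 of the 3 genes. Each sequence covers the 250 bases before the annotated start on the GRCm38.p6 build, a different build from that of the peaks, so these coordinates cannot be set against the peak positions. The motifs were chosen after the sequences were seen. Capitals mark matches to 4 motifs searched on both strands, which do not overlap here: NF-kB (GGG, any 2 bases, TTTCC), AP-1 (TGANTCA), C/EBP (TGCAAT) and TATA box (TATANAA).
Il6, chr5:30012864-30013113, plus strand: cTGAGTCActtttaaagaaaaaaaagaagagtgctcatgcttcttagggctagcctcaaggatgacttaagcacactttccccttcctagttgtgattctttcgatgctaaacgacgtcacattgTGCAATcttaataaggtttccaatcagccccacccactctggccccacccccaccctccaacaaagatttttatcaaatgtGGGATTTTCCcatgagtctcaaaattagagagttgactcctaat
Il12b, chr11:44399813-44400062, plus strand: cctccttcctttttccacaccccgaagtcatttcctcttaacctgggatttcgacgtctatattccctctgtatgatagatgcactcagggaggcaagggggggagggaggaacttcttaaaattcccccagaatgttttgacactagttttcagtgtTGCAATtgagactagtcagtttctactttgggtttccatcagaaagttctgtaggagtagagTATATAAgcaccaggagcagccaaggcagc
Both promoters held the C/EBP motif, from 125 to 120 bases before the start in Il6 and from 92 to 87 bases before it in Il12b. Of 32851 RefSeq promoter entries cut to the same length, 7.32% held it. The NF-kB motif was found in Il6 alone of the pair, 44 to 35 bases before the start, and in 1.41% of all entries. Other forms of the NF-kB motif were not searched, so the Il12b sequence may hold one. The AP-1 motif lay at the far end of the Il6 sequence and occurred in 6.75% of entries, and the TATA box motif lay 30 to 24 bases before the Il12b start and occurred in 10.4%. A match describes letters in this window and is not evidence of binding.

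At Il6, a wide H3K27ac domain was called after LPS and not in untreated cells with both vectors. The H3K4me3 peak at the same place was called after LPS with both vectors and, untreated, with shWdr82 alone. No Pol II peak was called there in any library. H3K4me3 peaks formed a single region at chr5:30339031-30342317, called in shWdr82 LPS, shWdr82 untreated and empty vector LPS cells. In the empty vector LPS library it was 1 peak of 2736 bp with a score of 3100, a value shared by 8444 of the 17986 peaks of that list. No peak was called there in empty vector untreated cells, whose nearest H3K4me3 peak lay 56264 bp away. In shWdr82 LPS cells the region held a peak of 1159 bp with a score of 846 and a peak of 414 bp with a score of 69.1. In shWdr82 untreated cells it held a peak of 939 bp with a score of 69.4, above 8.05% of its list. In the untreated state the region was thus called with the hairpin, by a peak near the lower end of its list, and not with the empty vector.

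The H3K4me3 covered length at Il6 was 1573 bp after LPS against 939 bp untreated in shWdr82 cells, a log2 ratio of 0.74, and 2736 bp against 0 bp in empty vector cells. Across the genome, 4.08% of 60 kb stretches were at least 2-fold higher with LPS in empty vector cells. Set against the control, shWdr82 cells had 939 bp against 0 bp untreated, and 1573 bp against 2736 bp after LPS, a log2 ratio of -0.80. The untreated background for a 2-fold higher length in shWdr82 cells was 7.52%. The untreated difference rests on the 1 low-scoring peak and was absent when peaks with scores under 100 were left out, and with equal numbers of top-scoring peaks per library.

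H3K27ac at Il6 covered 14796 bp after LPS against 1489 bp untreated in shWdr82 cells, and 15716 bp against 1670 bp in empty vector cells. These are log2 ratios of 3.31 and 3.23, where the medians over 60 kb stretches covered in both libraries were -0.08 and 0.09, and 20.2% and 24.4% of stretches were at least 2-fold higher. Most of the length was a domain spanning the H3K4me3 region, at chr5:30332634-30342584. It was 9933 bp wide in shWdr82 LPS cells and 9018 bp wide in empty vector LPS cells, wider than 95.2% and 92.5% of the peaks of their lists. The nearest H3K27ac peaks of the untreated libraries lay 19942 bp (shWdr82) and 19899 bp (empty vector) away. The covered lengths of the 2 vectors differed little, with log2 ratios of shWdr82 to control of -0.09 after LPS and -0.17 untreated.

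Further H3K27ac regions lay on both sides of that domain. On its left, as coordinates run, chr5:30322433-30325353 was called in both LPS libraries and chr5:30319246-30321673 in the empty vector LPS library alone, 759 bp from the nearest shWdr82 LPS peak. That empty vector region coincided with an H3K4me1 region, chr5:30319255-30321450, which both scrambled libraries held and both shWdr82 libraries lacked. The scrambled peaks were weak, with scores of 67.3 (LPS) and 79.1 (untreated), above 11.5% and 18.1% of their lists. In shWdr82 cells the nearest H3K4me1 peaks lay 16683 bp (LPS) and 16691 bp (untreated) away. Over the genome, 16.6% (LPS) and 17.1% (untreated) of H3K4me1 regions were called in scrambled and not in shWdr82 cells. The reverse shares were 13.5% and 14.4%. On its right, chr5:30344630-30345805 was called in shWdr82 LPS cells alone with a score of 64.1. Of H3K27ac regions of the genome called after LPS, 12.6% were in empty vector and not in shWdr82 cells, and 7.95% were the reverse. A weak region at chr5:30362484-30363430 was called in the untreated libraries of both vectors and in neither LPS library.

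H3K4me1 at the central Il6 region was called in 3 of the 4 libraries and was missing in scrambled untreated cells. The peaks at chr5:30338134-30341534 measured 3249 bp in shWdr82 LPS cells, 3344 bp in shWdr82 untreated cells and 3273 bp in scrambled LPS cells. Their scores, 229, 161 and 246, were above 61.5%, 51.8% and 58.6% of their own lists. The nearest peak in scrambled untreated cells lay 16875 bp away. At this region both H3K4 methylation marks had a peak in untreated shWdr82 cells and none in untreated control cells. The controls were an empty vector for H3K4me3 and a scrambled hairpin for H3K4me1, and the H3K4me3 peak had a score of only 69.4. Among untreated regions of the genome, 9.51% (H3K4me3) and 14.4% (H3K4me1) were called in shWdr82 and not in control cells. The reverse shares were 7.80% and 17.1%. Over the whole window the H3K4me1 covered length was 4516 bp against 3930 bp in shWdr82 cells and 7104 bp against 3624 bp in scrambled cells, each after LPS against untreated.

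Pol II was nearly absent from the Il6 window. Neither Ser2P nor H3K36me3 had a peak there in any library. Total Pol II had a single region, chr5:30366231-30367044, with a peak of 541 bp in shWdr82 untreated cells and of 814 bp in scrambled untreated cells and none after LPS. A loss of at least 2-fold was seen in 41.9% (shWdr82) and 43.3% (scrambled) of 60 kb stretches with total Pol II, so this change was common in the genome. The region lay within an H3K27ac region and an H3K4me1 region that were each called in all 4 of their libraries. In the RefSeq gene order, Il6 overlaps the noncoding gene A230098N10Rik and is followed by Tyms, and peaks were not assigned to any of them.

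**Figure D1:**
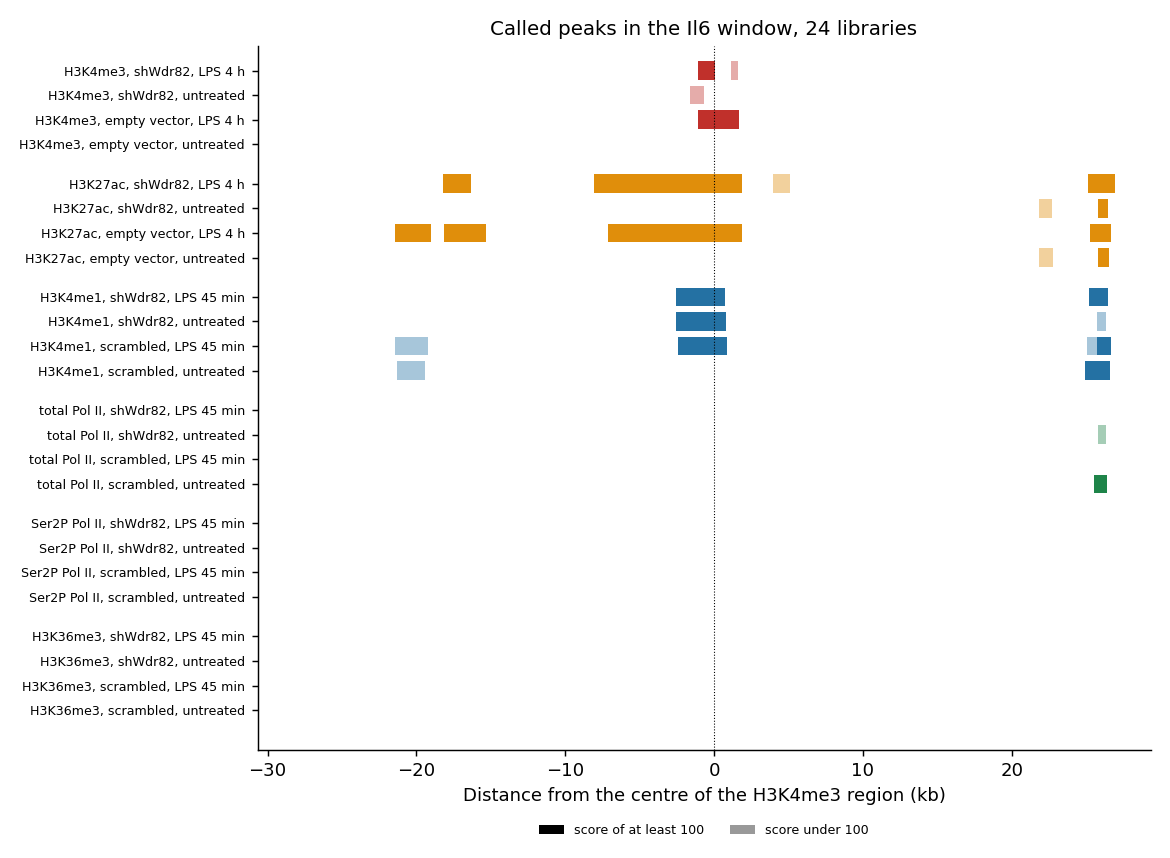
Called peaks of the 24 libraries in the Il6 window, each row 1 library, by distance in kb from the centre of the H3K4me3 region, with pale bars for scores under 100. The H3K27ac domain of 9933 bp (shWdr82) and 9018 bp (empty vector) appears in the LPS rows alone, the H3K4me1 peak over the centre is missing in the scrambled untreated row, and the Ser2P and H3K36me3 rows are empty.

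At Il12b, Pol II appeared with LPS in cells of both vectors, while the only H3K27ac region of the window was called in untreated cells alone. Total Pol II covered 19165 bp after LPS against 0 bp untreated in shWdr82 cells, and 13762 bp against 0 bp in scrambled cells. Stretches of 60 kb at least 2-fold higher with LPS made up 18.7% and 13.6% of those with total Pol II. The main region, chr11:44213066-44227330, was 14265 bp long. It was made of peaks of 9390 and 4717 bp in shWdr82 LPS cells, and of peaks of 7724 and 6038 bp in scrambled LPS cells. In the untreated libraries the nearest total Pol II peaks lay 55096 bp (shWdr82) and 54651 bp (scrambled) away.

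The shWdr82 LPS library held 2 further total Pol II regions at Il12b that the scrambled LPS library lacked. The first, chr11:44202234-44205509, had a score of 96.3 and lay 7556 bp from the nearest scrambled LPS peak. The second, chr11:44228119-44229900, had a score of 184 and lay 1149 bp from it. Over the 3 windows, 4 of 7 total Pol II regions called after LPS were in shWdr82 cells and not in scrambled cells, and 0 of 7 were the reverse. Over the genome these shares were 21.5% and 17.3%. The other 2 such regions lay at Il10.

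Ser2P at Il12b covered 6412 bp after LPS against 0 bp untreated in shWdr82 cells, and 2414 bp against 0 bp in scrambled cells. A length at least 2-fold higher with LPS was found in 29.1% and 26.3% of 60 kb stretches. After LPS, shWdr82 cells had 2.66-fold the length of scrambled cells, and 30.0% of stretches reached 2-fold in that direction. Most of the excess was 1 peak of 3928 bp at chr11:44191171-44195098, with a score of 445, above 71.7% of the shWdr82 LPS list. The nearest Ser2P peak of the scrambled LPS library lay 19095 bp away, and no total Pol II peak overlapped it. With the window narrowed by 10000 bp on each side, which leaves this peak out, the lengths were 2484 bp and 2414 bp. The whole shWdr82 LPS list of Ser2P also covered more of the genome, 60.6 Mb against 44.7 Mb in scrambled LPS cells, and the part of that in the present difference was not tested.

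The Ser2P region shared by both LPS libraries, chr11:44228211-44230694, lay past the end of the main total Pol II region. It measured 2484 bp in shWdr82 LPS cells and 1869 bp in scrambled LPS cells. It fell on the element with the highest H3K4me1 score of the window in each library. This H3K4me1 region, chr11:44227328-44231978, was called in all 4 libraries, with peaks of 4324 to 4596 bp whose scores were above 93.7% to 95.9% of their lists. Scrambled LPS cells had a further Ser2P peak of 545 bp at chr11:44214194-44214738, inside the total Pol II region, which shWdr82 LPS cells lacked.

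The H3K27ac region of Il12b, chr11:44227436-44231271, coincided with this same element. It was 3836 bp wide with a score of 608 in shWdr82 untreated cells and 2056 bp wide with a score of 263 in empty vector untreated cells. After 4 h of LPS no H3K27ac peak was called in the window with either vector, and the nearest ones lay 39901 bp (shWdr82) and 39994 bp (empty vector) away. A loss of at least 2-fold was seen in 25.5% and 20.6% of 60 kb stretches with H3K27ac. The element thus had Ser2P peaks at 45 min of LPS and no H3K27ac peak at 4 h. The 2 times come from different chromatin preparations and were not compared with each other.

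H3K4me3 at Il12b was a single peak of 392 bp, chr11:44212235-44212626, in shWdr82 untreated cells. Its score of 82.3 was above 11.2% of its list, and the nearest H3K4me3 peaks of the other 3 libraries lay 70297 to 70512 bp away. This is 392 bp against 0 bp for shWdr82 against empty vector untreated cells. In that comparison 7.52% of 60 kb stretches were at least 2-fold higher in shWdr82 cells. For LPS against untreated shWdr82 cells it is 0 bp against 392 bp, and 5.28% of stretches were at least 2-fold lower with LPS. Both differences were 0 bp with a score of at least 100 or with equal numbers of top-scoring peaks per library. The peak overlapped an H3K4me1 region, chr11:44211878-44213990, that was missing in shWdr82 LPS cells and called in the other 3 libraries. It lay just left of the start of the total Pol II region.

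H3K4me1 was the most widely called mark at Il12b, with 10 regions across the window. The covered length was 10390 bp in shWdr82 LPS cells, 13748 bp in shWdr82 untreated cells, 16499 bp in scrambled LPS cells and 13483 bp in scrambled untreated cells. With LPS it was thus longer in scrambled cells and shorter in shWdr82 cells, by log2 ratios of 0.29 and -0.40, both under 2-fold. After LPS, 4 of the 10 regions were called in scrambled cells and not in shWdr82 cells: chr11:44202725-44205042, chr11:44205935-44206722, chr11:44211878-44213990 and chr11:44240741-44243996. Their scores in the scrambled LPS list were 170, 59.9, 77.6 and 64.8, in that order. These were above 46.1%, 7.16%, 17.2% and 10.1% of that list. Over the 3 windows, 5 of 18 H3K4me1 regions called after LPS were in scrambled cells alone and 0 of 18 in shWdr82 cells alone, against genome shares of 16.6% and 13.5%. The one outside Il12b lay at Il6, with a score of 67.3. The scrambled LPS list was also longer, with 65149 peaks against 61848 in shWdr82 LPS cells, and the part of that in these counts was not tested. In untreated cells chr11:44202725-44205042 and chr11:44191405-44192608 were called with the scrambled hairpin and not with shWdr82, while chr11:44238380-44240292 was called in 3 libraries and missing in scrambled untreated cells.

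**Figure D2:**
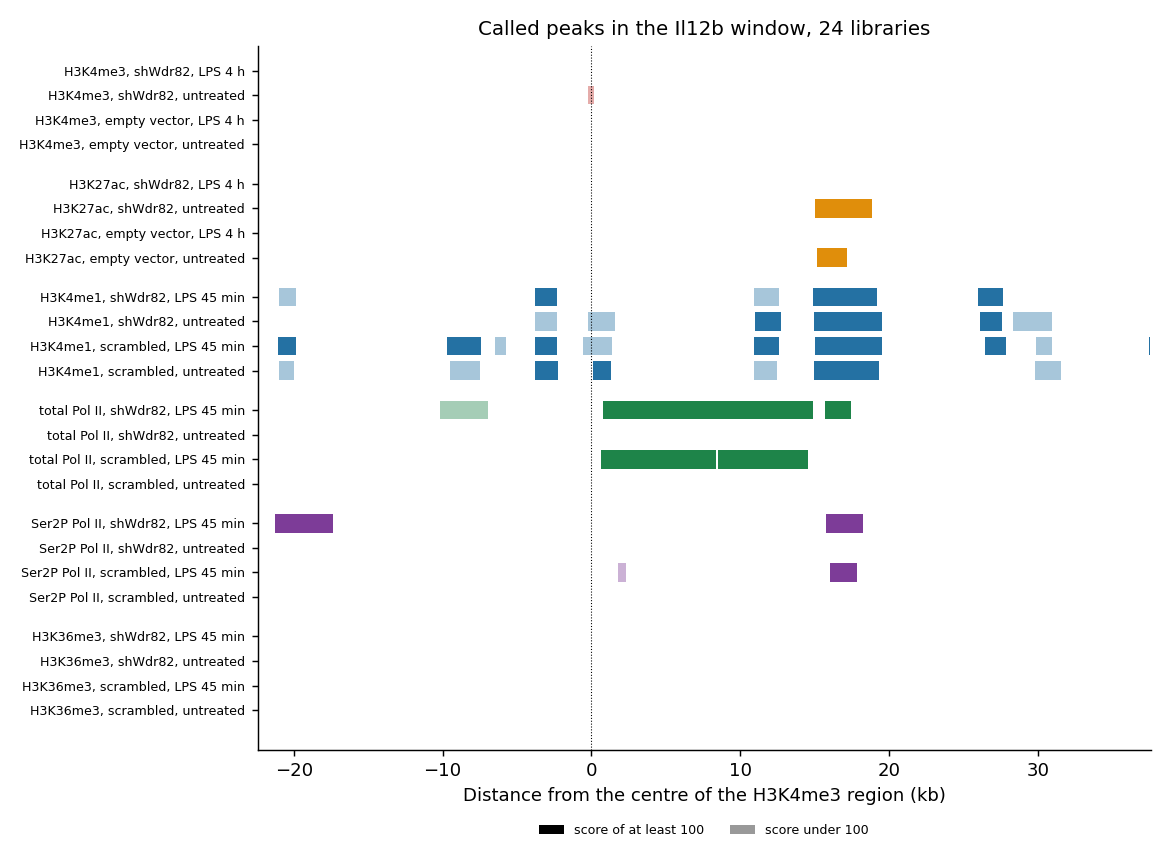
Called peaks of the 24 libraries in the Il12b window, each row 1 library, by distance in kb from the centre of the H3K4me3 region, with pale bars for scores under 100. Total Pol II peaks of the main region add up to 14107 bp in the shWdr82 LPS row and 13762 bp in the scrambled LPS row, with none in the untreated rows, and the H3K27ac bars of 3836 bp (shWdr82) and 2056 bp (empty vector) stand in the untreated rows alone.

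At Il10, LPS was accompanied by Pol II and H3K27ac over most of the window in cells of both vectors. Ser2P covered 49539 bp after LPS against 1163 bp untreated in shWdr82 cells, and 40224 bp against 390 bp in scrambled cells. That is 99.1% and 80.4% of the window after LPS. Stretches of 50 kb at least 2-fold higher with LPS made up 29.7% and 26.5% of those with Ser2P. The untreated lengths are the ends of peaks of 10268 bp and 10133 bp that reach into the window across its right edge. Their difference of 2.98-fold between shWdr82 and scrambled cells therefore reflects where these peaks begin, and 29.5% of stretches reached 2-fold in that direction.

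The Ser2P peaks of the LPS libraries differed over the H3K4me3 region of Il10. In scrambled LPS cells no Ser2P peak was called between position 132913348 and position 132920573, so the long peaks on either side were separated. In shWdr82 LPS cells this interval held a peak of 6682 bp, chr1:132913520-132920201, with a score of 394, above 69.9% of its list. It lay 171 bp from the nearest scrambled LPS peak, the one on its left. To the left of the interval the shWdr82 LPS library had a peak of 25078 bp that crosses the window's edge, and the scrambled LPS library had peaks of 1607 and 19462 bp. To the right shWdr82 LPS cells had 1 peak of 30729 bp, and scrambled LPS cells had 4 peaks of 3108, 1291, 5747 and 20226 bp. The wider cover of the whole shWdr82 LPS Ser2P list applies here too. Over the genome, 35.3% of Ser2P regions called after LPS were in shWdr82 and not in scrambled cells, and 26.3% were the reverse.

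Total Pol II at Il10 covered 42202 bp after LPS against 1401 bp untreated in shWdr82 cells, and 25158 bp against 0 bp in scrambled cells. With LPS, 18.8% and 13.8% of 50 kb stretches were at least 2-fold higher, while the median log2 ratios over stretches covered in both libraries were -0.35 and -0.31. The ratio of shWdr82 to scrambled cells after LPS was 1.68-fold, under the 2-fold limit. The excess lay left of the H3K4me3 region, in regions of 2127 bp at chr1:132894958-132897084 and 14585 bp at chr1:132898907-132913491. Both had peaks in shWdr82 LPS cells alone, with scores of 73.7 and 223, and both overlapped Ser2P peaks of both LPS libraries. Elongating Pol II was thus called there with either vector, and total Pol II with the hairpin alone.

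Over the H3K4me3 region itself, total Pol II was called at chr1:132914451-132920267 in 3 libraries. The peaks measured 5763 bp in shWdr82 LPS cells, 1401 bp in shWdr82 untreated cells and 5740 bp in scrambled LPS cells. The untreated shWdr82 peak had a score of 53.9, above 4.04% of its list, and the nearest peak of scrambled untreated cells lay 20437 bp away. Of 50 kb stretches, 8.19% were at least 2-fold higher in shWdr82 than in scrambled untreated cells. To the right, a total Pol II region of 42087 bp began at position 132920274 and ran past the window's edge to position 132962360. It was called in all 4 libraries, with untreated peaks only outside the window. In the RefSeq gene order Il10 lies between the noncoding gene Gm41952 and Mapkapk2, which encodes a kinase of the p38 pathway, and the part of this region that belongs to either gene was not determined.

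H3K27ac at Il10 covered 49201 bp after LPS against 14818 bp untreated in shWdr82 cells, and 49871 bp against 14086 bp in empty vector cells. The log2 ratios were 1.73 and 1.82, where the medians of 50 kb stretches covered in both libraries were -0.08 and 0.09 and 20.6% and 24.9% were at least 2-fold higher. In empty vector LPS cells the window held peaks of 37387 bp and 21227 bp, ranking 42 and 275 by width among 28986 peaks. In shWdr82 LPS cells it held peaks of 22381, 3137 and 35669 bp, the widest ranking 45 among 28462. All 4 libraries had a peak over the H3K4me3 region. In the untreated libraries it was 5049 bp wide in shWdr82 and 4793 bp wide in empty vector cells. The ratio between vectors was 0.987-fold after LPS and 1.05-fold untreated.

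H3K4me1 at Il10 was alike in extent in the 4 libraries, with 19051 bp in shWdr82 LPS cells, 17082 bp in shWdr82 untreated cells, 19216 bp in scrambled LPS cells and 16567 bp in scrambled untreated cells. Of its 5 regions, 4 were called in every library. The exception, chr1:132929663-132930927, was missing in scrambled untreated cells. The widest region, chr1:132933343-132941476, coincided with the right-hand group of untreated H3K27ac peaks.

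H3K4me3 at Il10 was shorter after LPS in empty vector cells and was called after LPS alone in shWdr82 cells. In empty vector cells a peak of 3975 bp with a score of 706, wider than 97.0% of its list, was called in the untreated state, and a peak of 986 bp with a score of 63.3 after LPS. In shWdr82 cells there was no peak untreated, the nearest lying 61352 bp away, and a peak of 816 bp with a score of 59.6 after LPS. The small peaks of the 2 LPS libraries lay at opposite ends of the merged region chr1:132914530-132918574, from 132917437 to 132918252 in shWdr82 cells and from 132914530 to 132915515 in empty vector cells. LPS against untreated was thus 816 bp against 0 bp in shWdr82 cells and 986 bp against 3975 bp in empty vector cells, a log2 ratio of -2.01. Of 50 kb stretches, 7.81% were at least 2-fold higher in shWdr82 cells and 8.44% at least 2-fold lower in empty vector cells. The untreated difference between shWdr82 and empty vector cells was 0 bp against 3975 bp, and 8.01% of stretches were at least 2-fold lower in that direction. That share also counts losses that are not complete. The LPS difference in shWdr82 cells rests on the peak with a score of 59.6 and was 0 bp with a score of at least 100 or with equal numbers of top-scoring peaks per library.

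H3K36me3 had 1 region at Il10, chr1:132918217-132920200. Its peaks measured 1737 bp in shWdr82 untreated cells, 1718 bp in scrambled LPS cells and 1975 bp in scrambled untreated cells, and the nearest peak of shWdr82 LPS cells lay 25572 bp away. The 3 scores lay between 68.4 and 83.5, above 9.11% to 12.5% of their lists. A loss of at least 2-fold was found in 5.28% of 50 kb stretches for LPS against untreated shWdr82 cells and in 5.95% for shWdr82 against scrambled LPS cells. No other H3K36me3 peak was called in the window, over most of which Ser2P peaks lay after LPS.

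**Figure D3:**
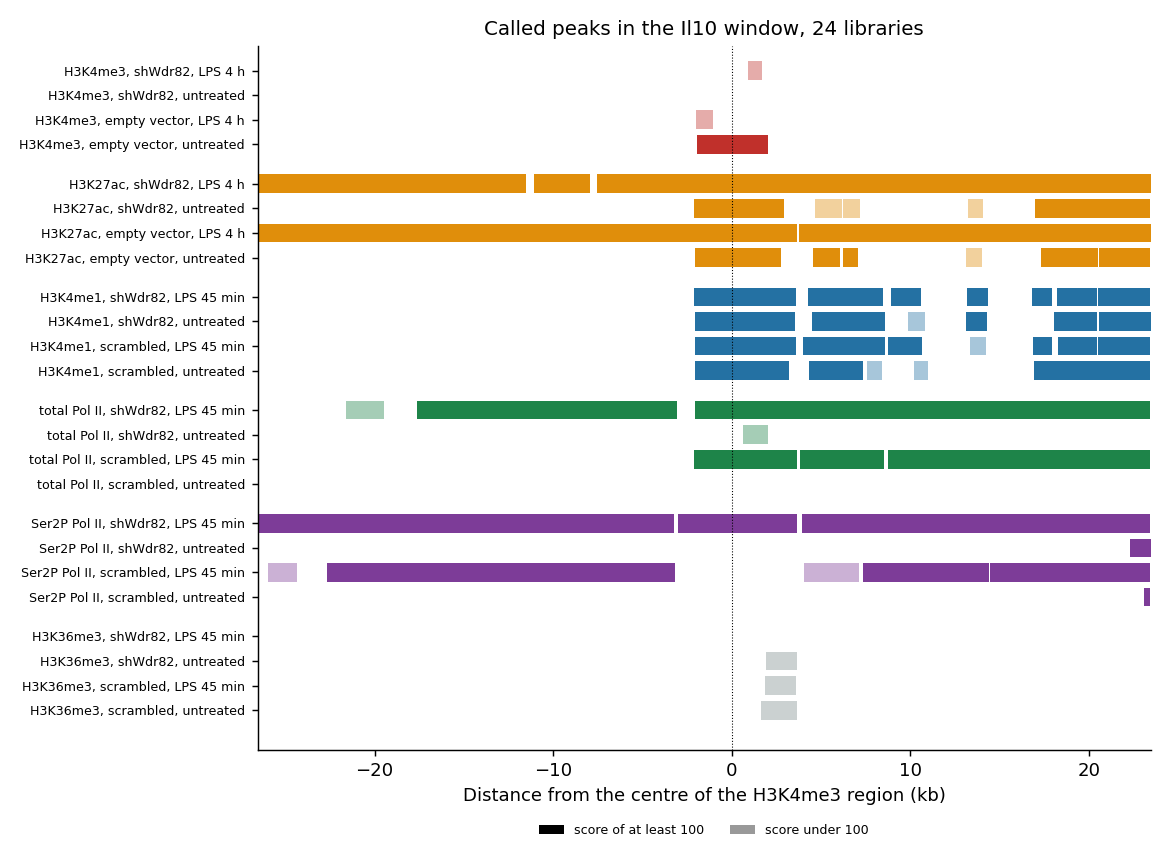
Called peaks of the 24 libraries in the Il10 window, each row 1 library, by distance in kb from the centre of the H3K4me3 region, with pale bars for scores under 100 and peaks cut at the window's edges. Ser2P bars cover 99.1% of the window in shWdr82 LPS cells and 80.4% in scrambled LPS cells, where an empty interval spans the centre.

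Set side by side, the genes shared few of their changes. With LPS the H3K27ac length was longer at Il6 and Il10 and was 0 bp at Il12b, in cells of both vectors. Total Pol II and Ser2P were longer after 45 min of LPS at Il10 and Il12b with both vectors, and Il6 had no Pol II peak at that time with either. The H3K4me3 lengths differed by vector at each gene: in untreated cells it was called in shWdr82 and not in empty vector cells at Il6 and Il12b, and in empty vector and not in shWdr82 cells at Il10. At Il6 and Il12b these calls rest on peaks with scores under 100. Over the whole H3K4me3 lists, untreated shWdr82 cells had more peaks (20490 against 18951) of lower median width (1187 bp against 1526 bp) than empty vector cells, and the part of that in these differences was not tested.

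**Figure D4:**
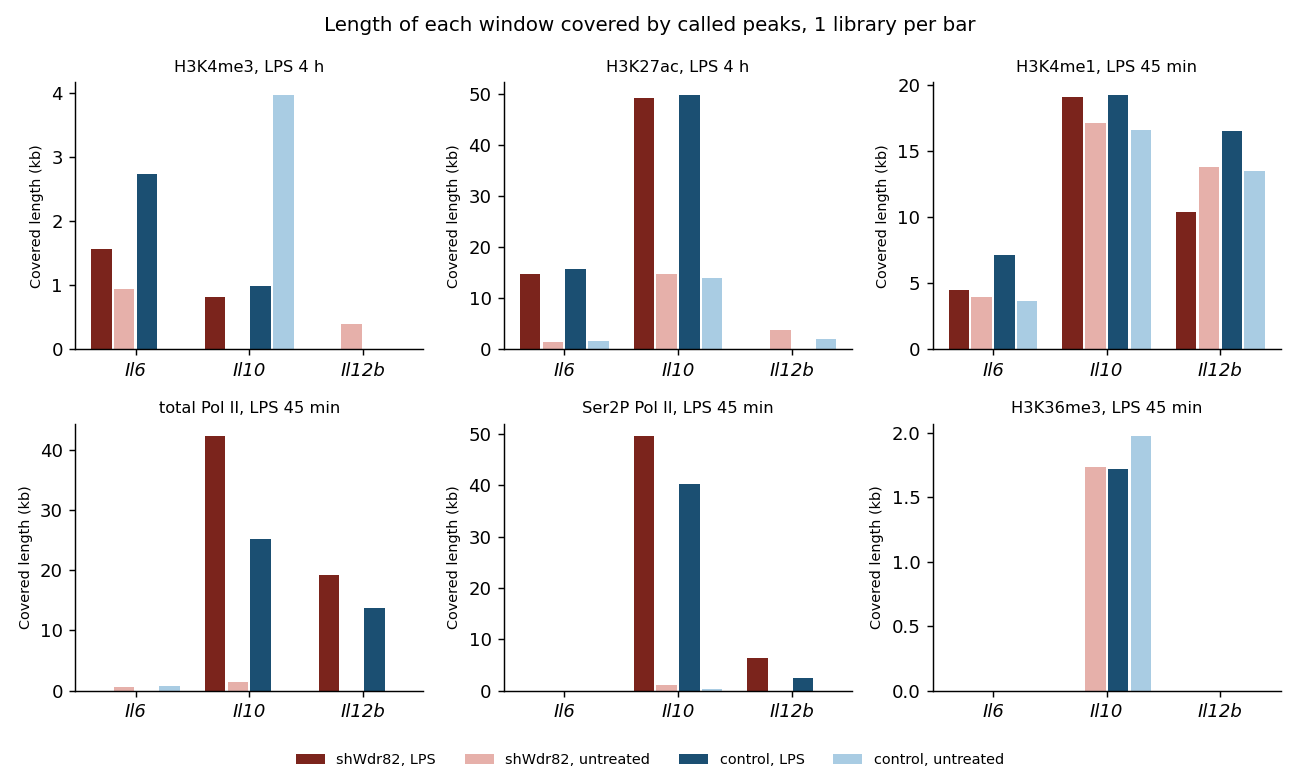
Length of each window covered by called peaks in kb, for each antibody and gene, with 1 bar per library in the order shWdr82 LPS, shWdr82 untreated, control LPS and control untreated. At Il10 the Ser2P bars reach 49539 bp and 40224 bp after LPS, the H3K4me3 bar is longest in untreated control cells at 3975 bp, and Il6 has no Ser2P or H3K36me3 bar.

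Counted as regions over the 6 antibodies, the windows held a larger share of regions called after LPS alone than the genome did, with either vector. In shWdr82 cells, 14 of 39 regions (35.9%) were called after LPS and not untreated, against 17.0% of all regions of the genome, and 7 of 39 (17.9%) were the reverse, against 20.4%. In control cells, 13 of 36 regions (36.1%) were called after LPS and not untreated, against 15.0%, and 3 of 36 (8.33%) were the reverse, against 21.1%. For the hairpin in untreated cells, 6 of 29 regions (20.7%) were called in shWdr82 and not in control cells, against 14.4%, and 4 of 29 (13.8%) were the reverse, against 16.1%. After LPS, 7 of 40 (17.5%) were called in shWdr82 and not in control cells, against 15.8%, and 8 of 40 (20.0%) were the reverse, against 14.7%. The hairpin shares lie nearer to the background than the shares for LPS alone. The excess with LPS was not shared by every antibody. For H3K4me1, 1 of 15 regions (6.67%) was called after LPS and not untreated in shWdr82 cells, against 15.6% in the genome. In scrambled cells 4 of 18 were (22.2%), against 14.2%. For total Pol II 5 of 8 regions were in shWdr82 cells, against 20.3%, and 2 of 4 in scrambled cells, against 14.0%. For Ser2P the counts were 4 of 5, against 34.2%, and 3 of 4, against 28.4%. For H3K27ac they were 3 of 7 with each vector, against 18.6% (shWdr82) and 21.6% (empty vector), and all of these lay at Il6. The reverse was seen for 2 of 7 H3K27ac regions with each vector, against 27.7% and 24.9%. The mix of antibodies differs between the windows and the genome, and regions of 1 window are not independent of each other.

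**Figure D5:**
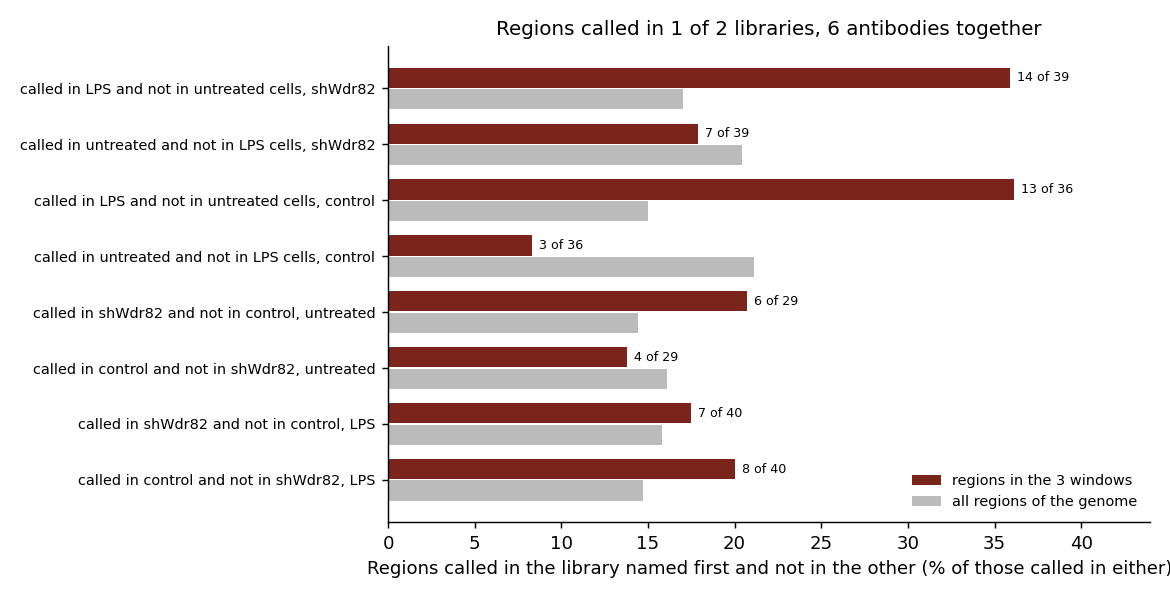
Share in percent of regions called in the library named first and not in the other, for the 3 windows and for all regions of the genome, 6 antibodies together. The share for LPS and not untreated is 35.9% (shWdr82) and 36.1% (control) in the windows and 17.0% and 15.0% in the genome.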

How the data were processed

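ChIP-seq peak lists of 24 libraries were used, 1 per group. Per the submitters' processing notes, Bowtie 0.12.7, MACS 1.4 and the mm9 build were used; the sources used here do not give the input library, filters or read depth. The deposited score is the authors' value for each peak, with no header to define it. Positions are counted from 1.

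Peaks of the 4 libraries of an antibody were merged where they shared at least 1 bp, and each region was classed by the libraries that hold it. Covered lengths were cut at the window's edges. Python 3.11.15 and matplotlib 3.10.9 were used, and merging, covered lengths and calls were tested on simulated data. The members and the settings were chosen with earlier results of these data known. The regions named are all H3K4me3, total Pol II and Ser2P regions, and those of the other marks that are widest or differ in any comparison. Alternatives were a score of at least 100, equal numbers of top-scoring peaks per library, merging across 1000 bp, most of a region required inside the window, and windows narrowed by 10000 bp. Other genes were not analysed here, since no mm9 annotation was used.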

Additional observations from a re-analysis of the deposited data

Results flagged for a closer look

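The H3K4me3 covered length at Il6 differed between shWdr82 and empty vector cells in opposite directions in the 2 treatments, by 939 bp (shWdr82 minus control) untreated and by -1163 bp after LPS. At Il10 the LPS minus untreated difference in H3K4me3 covered length was 816 bp in shWdr82 cells and -2989 bp in empty vector cells. With a score of at least 100, and also with equal numbers of top-scoring peaks per library, the untreated difference at Il6 and the shWdr82 difference at Il10 were both 0 bp, so the opposite directions were then not seen. As reported, each side is at least 1.5-fold, each group is 1 library, and the difference between the groups was not tested.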

How the results depend on the processing

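Of the 8 counts of regions, the value stayed within 1.5 times the reported one for 6 with a score of at least 100, 6 with equal numbers of top-scoring peaks, 5 with peaks merged across 1000 bp, 8 with most of a region required inside the window and 6 with narrowed windows. With a score of at least 100, regions in untreated and not LPS shWdr82 cells numbered 2, and regions in control and not shWdr82 LPS cells 4. With equal numbers of peaks, those in untreated and not LPS shWdr82 cells numbered 4 and those in shWdr82 and not control untreated cells 3. With merging across gaps, regions in LPS and not untreated control cells numbered 8, those in shWdr82 and not control LPS cells 4 and those in control and not shWdr82 LPS cells 5. With narrowed windows, regions in untreated and not LPS cells numbered 4 (shWdr82) and 1 (control). Fewer peaks or shorter windows leave fewer regions, and the cause of each change was otherwise not tested. Of 72 comparisons of covered length, 28 were called different by the 2-fold limit. Of these, 20 held with a score of at least 100, 22 with equal numbers of peaks, 28 with merging and 24 with narrowed windows. Of the 28, 0 reversed. Among the comparisons not called as reported, 4, 3, 0 and 2 were called under these alternatives, in the same order. No paired analysis was possible because each group has 1 library. Depth is unknown, and weak regions near the threshold limit these comparisons, among them the H3K4me3 peaks of untreated shWdr82 cells at Il6 and Il12b and of LPS-treated shWdr82 cells at Il10.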

Other observations

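Some peaks of different antibodies broke off at the same places in the Il10 window, a pattern noticed after the data were seen. There were 25 gaps of at most 1000 bp between neighbouring peaks of a list at Il10, against 2 at Il6 and 5 at Il12b. The Il10 window also held more peaks, 66 against 28 and 43. Neither short gaps nor shared gaps were counted over the genome, so how common they are is unknown. A stretch of 6 bp at chr1:132920268-132920273 lay in such a gap in 7 libraries of 4 antibodies (H3K27ac, H3K4me1, total Pol II and Ser2P), and 1 library had a peak across it. The gaps ran from 6 bp to 965 bp. This place lies inside the Ser2P interval without peaks in scrambled LPS cells, and the region's H3K36me3 peaks end just before it. A second shared gap of 45 bp, chr1:132925167-132925211, was found in 4 libraries of 3 antibodies. Because of such breaks, a count of separate peaks at Il10 says less than the covered length.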
